A study of Mus musculus with 8 samples.

Results

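Hes5 and 9 other genes of the Notch pathway were followed in hippocampal RNA-seq counts of mice that carry a Camk2a-driven Cre transgene and of wild-type mice. The 10 genes were taken by symbol from a deposited table of 46078 gene entries. They comprise the target genes Hes5, Hes1, Hey1 and Hey2, the receptors Notch1, Notch2 and Notch3, the ligands Dll1 and Jag1, and the DNA-binding factor Rbpj. Each symbol matched a single entry. Hes5 entered the set because its level differed between Cre and WT libraries in an earlier look at these counts, so the Cre over WT values of the 10 genes are given here as a description without a test. The transgenic animals (Cre) were hemizygous for Tg(Camk2a-cre)2Gsc, also called CamiCre, and the wild-type animals (WT) lacked it. All were 9 weeks old and of the C57BL/6J strain per the labels, and no floxed allele is named in either group. In this line regulatory DNA of Camk2a directs Cre to excitatory neurons of the forebrain. Each group had 4 libraries. The labels do not state that the libraries of a group are separate animals, so p-values measure the spread between these libraries, which may be technical.

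Notch signalling passes between neighbouring cells. Ligands of the Delta and Jagged families on one cell bind Notch receptors on another, the receptor is cut by Adam10 and then by gamma-secretase, and its freed intracellular domain enters the nucleus, where it joins Rbpj and a Mastermind coactivator. This complex switches on Hes and Hey genes, which encode basic helix-loop-helix repressors that hold back proneural factors. In the adult hippocampus the pathway is known for keeping radial glia-like stem cells of the dentate gyrus in reserve, and it is also active in astrocytes and in vessel walls. Hes5 is commonly used as a marker of neural stem cells, and astrocytes express it as well.

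The libraries held 21339996 to 27826871 counts in Cre and 24289522 to 26950207 in WT. Of all entries, 15859 genes had enough counts to be tested, all 10 Notch genes among them. Levels are CPM, counts divided by the library's effective size and multiplied by 1000000, after normalization by the trimmed mean of M values. The hippocampal markers Prox1, of dentate granule neurons, and Neurod6, of pyramidal neurons, were well above background, with 94.8 to 136 and 167 to 199 CPM in Cre and 97.6 to 114 and 167 to 197 CPM in WT. WT replicate 1 stood apart by its choroid plexus markers, whose summed level was 993 CPM there, against 25.4 to 36.9 CPM in the Cre libraries and 26.5 to 34.5 CPM in the other WT libraries. Cre replicate 1 had the highest microglia marker sum, 557 CPM; the remaining Cre libraries had 422 to 434 CPM and the WT libraries 387 to 418 CPM. Values without Cre replicate 1 are given for Hes5, the receptors and Lfng, and values without WT replicate 1 for Hes5, Jag1, Heyl and Id4.

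Promoters are shown for Hes5 and Hey2, the target genes in the set for which a start-site sequence was matched in RefSeq (GRCm38.p6, 250 bases before to 50 bases after the start). Capitals mark TGGGAA, the core of the sequence bound by Rbpj, or its reverse complement. Hes5 lies on the plus strand (chr4:154960673-154960972) and Hey2 on the minus strand (chr10:30842734-30843033); both are written in the direction of the gene.
Hes5: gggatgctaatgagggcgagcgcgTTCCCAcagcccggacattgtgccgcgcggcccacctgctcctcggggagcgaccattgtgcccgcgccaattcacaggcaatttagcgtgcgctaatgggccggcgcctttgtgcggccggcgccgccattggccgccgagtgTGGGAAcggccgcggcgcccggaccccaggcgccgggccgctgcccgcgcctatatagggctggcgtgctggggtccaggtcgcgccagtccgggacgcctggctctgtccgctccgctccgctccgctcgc
Hey2: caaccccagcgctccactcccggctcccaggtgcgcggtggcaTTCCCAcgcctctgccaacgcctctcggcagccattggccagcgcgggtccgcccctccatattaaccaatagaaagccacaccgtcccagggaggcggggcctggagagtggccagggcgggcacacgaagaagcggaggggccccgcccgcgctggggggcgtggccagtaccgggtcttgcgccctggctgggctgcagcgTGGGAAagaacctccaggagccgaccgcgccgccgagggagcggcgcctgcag
The Hes5 promoter held TGGGAA on the gene's own strand at bases -82 to -77 and as the reverse complement at -226 to -221, counted from the start site with no base 0. The Hey2 promoter held it on its own strand across the start, at -3 to 3, and as the reverse complement at -207 to -202. Of the 8 matched members (all but Hes1 and Hey1), 3 held TGGGAA on either strand (Hes5, Hey2 and Rbpj), each with 2 matches in its promoter or in 1 of its promoters. Over all 32851 RefSeq promoters of the same length, 25.6% held at least 1 match and 3.79% held 2 or more. The N box CACNAG, which Hes proteins bind, was found on either strand in the promoters of Notch1, Notch2, Notch3 and Dll1, and in 42.5% of all promoters. It was not in the Hes5 or Hey2 window, so no TGGGAA match overlaps it, and the matches at the Notch1 start overlap each other. The matches are a description of the letters in these windows.

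Hes5 was the member with the largest difference between the groups. This gene lies on chromosome 4 (GRCm38, 154960923 to 154962371, plus strand) and encodes a Notch-induced repressor. Its counts were 168, 182, 231 and 194 in Cre replicates 1 to 4, against 309, 282, 261 and 272 in WT replicates 1 to 4. After normalization these were 7.03, 8.61, 8.26 and 7.91 CPM in Cre and 11.4, 10.5, 10.8 and 11.2 CPM in WT. All 4 Cre libraries lay below all 4 WT libraries, with the highest Cre value at 8.61 CPM and the lowest WT value at 10.5 CPM. The means were 7.95 ± 0.68 CPM in Cre and 11.0 ± 0.43 CPM in WT (SD, n = 4 each), a log2 fold change of -0.47 with an SE of 0.08 and a 95% confidence interval of -0.65 to -0.29. This corresponds to 27.6% less Hes5 RNA in Cre, with an interval from 17.9% to 36.2% less. In bulk tissue, fewer cells that express a gene and less RNA per cell cannot be told apart.

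The spread within each group was close to, or in WT below, what counting error alone would give. From the counts alone, an SD of 0.57 CPM would arise in Cre and of 0.66 CPM in WT, against the observed 0.68 and 0.43 CPM. The exact 95% Poisson intervals of single libraries ran from 6.01 to 8.18 CPM for the lowest Cre library and from 7.40 to 9.95 CPM for the highest. In WT they ran from 9.27 to 11.7 CPM for the lowest library and from 10.2 to 12.8 CPM for the highest. The intervals were apart in 12 of the 16 pairs of a Cre and a WT library, the highest Cre library overlapping 3 of the WT libraries. These intervals cover counting error only. The 16 pairs reuse the same libraries, and Hes5 was chosen by these counts, so the number of pairs is a description.

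**Figure D1:**
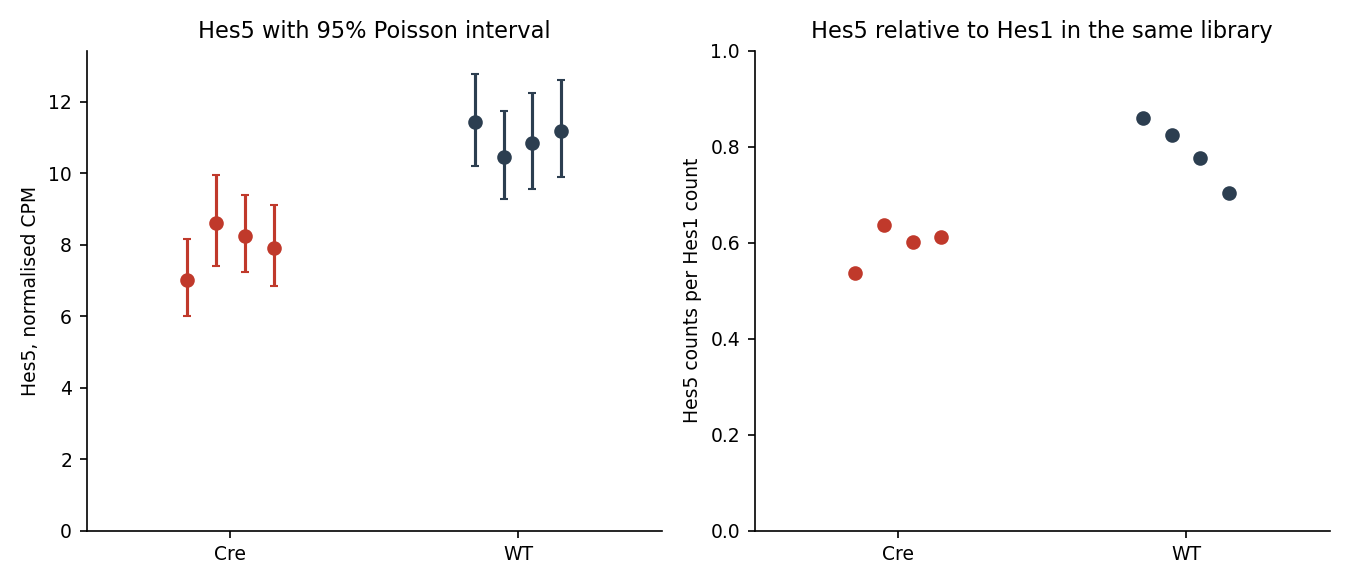
Left, Hes5 in normalised CPM for each library, Cre and then WT, with the exact 95% Poisson interval of its count; right, Hes5 counts divided by Hes1 counts in the same library. The Cre libraries sit at 7.03 to 8.61 CPM and the WT libraries at 10.5 to 11.4 CPM, and the ratio to Hes1 is 0.54 to 0.64 in Cre and 0.70 to 0.86 in WT.

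The Hes5 difference was of similar size without the libraries that stood apart. The log2 fold change was -0.45 without WT replicate 1, -0.41 without Cre replicate 1, and between -0.50 and -0.41 over all 8 fits that left out 1 library. The authors' deposited table rests on the same counts and gave -0.47 for Hes5 on the log2 scale and -0.06 to 0.11 for the other 9 members.

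The DNA around Hes5 was examined because the strand setting of the counting is not given in the sources used here. Gm20421, a noncoding gene on the opposite strand (154960770 to 154961678), covers the start of Hes5 and ends inside it. It had 0.61 ± 0.02 CPM in Cre and 0.60 ± 0.17 CPM in WT, with a log2 fold change of 0.004 (SE 0.26). Its counted level was thus a small fraction of that of Hes5 in both groups. Without strand, reads of the shared stretch cannot be told apart, so the counted value may differ from the level of Gm20421. Pank4, which encodes a pantothenate kinase family protein and begins 1.75 kb after Hes5, had 31.3 ± 1.30 CPM in Cre and 31.4 ± 1.04 CPM in WT (log2 fold change -0.002, SE 0.05). Fam213b, the nearest tested gene before Hes5 at 61.8 kb, had 51.0 ± 3.53 CPM in Cre and 51.2 ± 2.15 CPM in WT (log2 fold change -0.002, SE 0.05). Both neighbours had an edgeR quasi-likelihood adjusted p = 0.9995, and their fold changes were near 0 while that of Hes5 was -0.47. In the same edgeR quasi-likelihood fit Hes5, chosen for its difference, had an adjusted p = 0.26 and did not pass 0.05 either.

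The other target genes did not share a difference of that size. Hes1, another Hes repressor induced by Notch, had 13.1, 13.5, 13.7 and 12.9 CPM in Cre replicates 1 to 4 and 13.3, 12.7, 14.0 and 15.9 CPM in WT replicates 1 to 4. The Cre range lay inside the WT range. Cre over WT, this was -0.07 on the log2 scale (SE 0.08), and the 95% interval from -0.23 to 0.10 leaves out losses as large as that of Hes5. The number of Hes5 counts per Hes1 count was 0.60 ± 0.04 in Cre and 0.79 ± 0.07 in WT (SD, n = 4 each), with 0.54 to 0.64 in the Cre libraries and 0.70 to 0.86 in the WT libraries. The Hes5 share of the pair was therefore lower in every Cre library than in any WT library, as a description that includes the value by which Hes5 was chosen.

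Hey1, a Hes-related repressor and the member with the highest CPM, had 43.5, 45.9, 43.7 and 47.1 CPM in Cre and 47.3, 44.1, 46.8 and 49.2 CPM in WT, in the order of the replicates. Its groups overlapped, at a log2 fold change of -0.06 with an SE of 0.05 and an interval of -0.16 to 0.04. Hey2, a related repressor known from vessel walls and the heart, was the member with the fewest counts. It had 4.18, 4.07, 3.83 and 3.38 CPM in Cre and 3.63, 2.82, 3.07 and 4.81 CPM in WT. WT replicate 4 was the highest and WT replicate 2 the lowest of all 8 libraries, so the WT range enclosed that of Cre. The log2 fold change of Hey2 was 0.11 (SE 0.17), with an interval of -0.26 to 0.48 that admits a loss of 16.5% or a gain of 39.5%. It was 0.28 without WT replicate 4 and 0.01 without WT replicate 2.

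**Figure D2:**
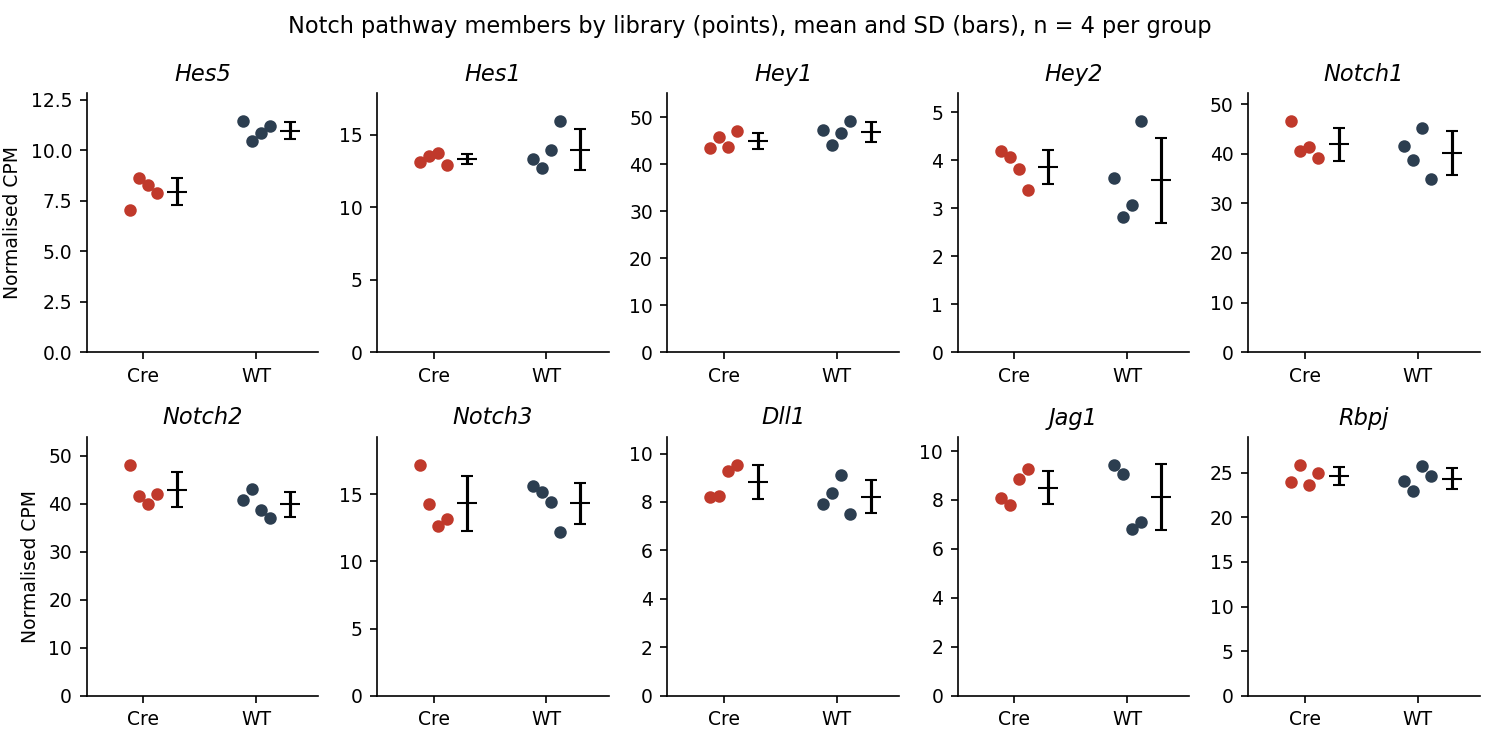
Normalised CPM of the 10 Notch genes in each library (points), Cre and then WT, with the group mean and SD beside the points (bars, n = 4 per group) and each axis starting at 0. The groups are apart for Hes5, at 7.95 ± 0.68 CPM in Cre and 11.0 ± 0.43 CPM in WT, and overlap in the other 9 genes.

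The receptors overlapped between the groups. Notch1, the receptor needed to maintain neural stem cells, had 46.6, 40.5, 41.4 and 39.1 CPM in Cre and 41.5, 38.8, 45.3 and 34.8 CPM in WT. Notch2, a receptor also active in adult hippocampal stem cells, had 48.1, 41.6, 39.9 and 42.1 CPM in Cre and 40.7, 43.1, 38.6 and 37.1 CPM in WT. Notch3, the receptor of pericytes and vascular smooth muscle, had 17.2, 14.3, 12.6 and 13.2 CPM in Cre and 15.6, 15.2, 14.4 and 12.2 CPM in WT. Cre replicate 1 was the highest of the 8 libraries for all of these receptors. The log2 fold changes were 0.06 (SE 0.08) for Notch1, 0.10 (SE 0.06) for Notch2 and -0.01 (SE 0.10) for Notch3. Without Cre replicate 1 they were 0.01, 0.05 and -0.11. Both Notch1 and Notch2 thus came closer to 0 without that library, while Notch3 moved further below 0. The astrocyte marker mean of Cre replicate 1 was also the highest of the 8, at 7.66 log2 CPM (7.51 to 7.63 in the remaining Cre libraries, 7.44 to 7.52 in WT). So were its means of oligodendrocyte (8.46), microglia (5.41), neural stem cell (5.14), neuroblast (3.39) and ependymal (3.04) markers. Whether any of these marker levels plays a part in the receptor values was not tested.

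The ligands lay slightly higher in Cre on average, with overlap. Dll1, a Delta ligand presented by neurons and intermediate progenitors, had 8.20, 8.23, 9.30 and 9.54 CPM in Cre and 7.92, 8.38, 9.09 and 7.49 CPM in WT, with a log2 fold change of 0.10 (SE 0.09). A930024N18Rik, a noncoding gene on the opposite strand that overlaps the start of Dll1, had 3.51 ± 0.64 CPM in Cre and 3.68 ± 0.63 CPM in WT (log2 fold change -0.07, SE 0.17). Jag1, a Jagged ligand of astrocytes and vessel walls, had 8.08, 7.80, 8.87 and 9.25 CPM in Cre and 9.44, 9.08, 6.81 and 7.12 CPM in WT. The WT libraries of Jag1 split into a pair above 9 CPM and a pair near 7 CPM, on either side of most Cre libraries. Its log2 fold change was 0.07 (SE 0.12), and without WT replicate 1 it was 0.15. Without WT replicate 3 it was -0.007 and without WT replicate 4 it was 0.008, so its direction depended on single WT libraries.

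Rbpj, which binds DNA for the whole pathway and recruits either coactivators or corepressors, had 23.9, 25.9, 23.7 and 24.9 CPM in Cre and 24.0, 22.9, 25.7 and 24.7 CPM in WT. Both groups covered nearly the same range. Cre over WT, Rbpj stood at 0.02 on the log2 scale (SE 0.05) with an interval of -0.10 to 0.13, and a Rbpj loss above 6.90% or a gain above 9.67% lies outside the interval.

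**Figure D3:**
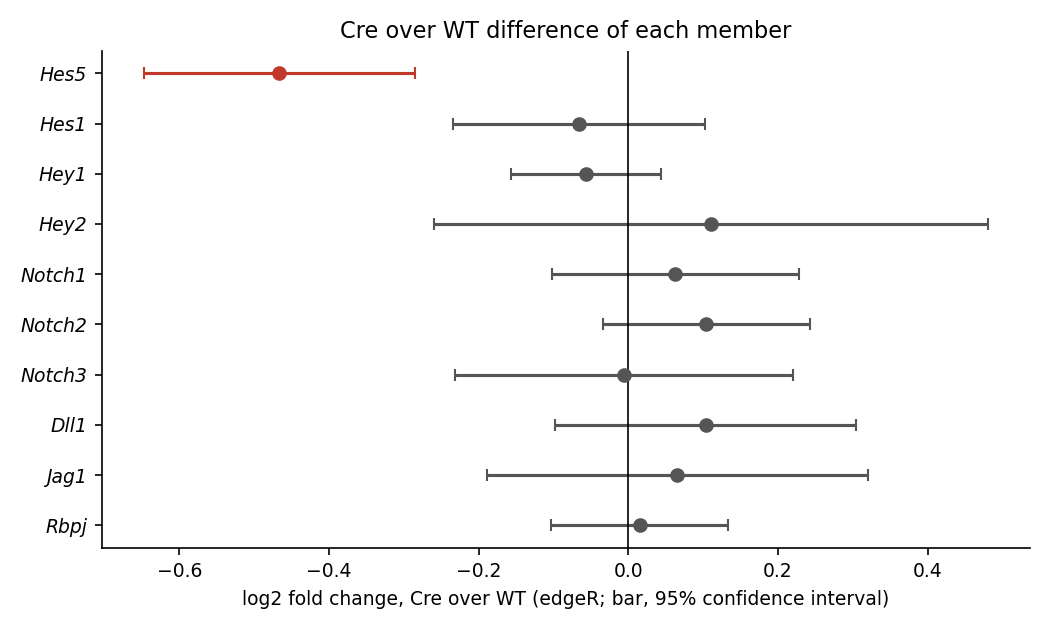
Log2 fold change of each Notch gene, Cre over WT, from edgeR (point) with its 95% confidence interval (bar). Hes5 lies at -0.47 with an interval of -0.65 to -0.29, and the intervals of the other 9 genes include 0; Hes5 was chosen for this difference.

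By the fit over all genes, 0 of the 10 members passed a threshold of 0.05 on the adjusted p by edgeR's quasi-likelihood method, where 5 of 15859 genes (0.0315%) did, 4 higher (0.0252%) and 1 lower (0.00631%) in Cre. With limma voom 0 members passed (0.0315% of all genes), and with DESeq2 (0.0442%) and edgeR's exact test (0.0441%) 1 did, Hes5. At an unadjusted p under 0.05 there was 1 member, Hes5, lower in Cre, against 3.50% of all genes (2.05% higher and 1.45% lower). The groups did not overlap in 1 member, Hes5, against 2.31% of all genes, with 1.29% higher and 1.03% lower in Cre. Nothing is read from these counts, since this contrast was used to choose Hes5. Of all tested genes, 139 had a log2 fold change below that of Hes5. Without Hes5, the remaining 9 members had 6 log2 fold changes above 0 and 3 below, with a median of 0.06, against a median of 0.0004 over all genes, of which 49.8% lay below 0.

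Scaled by length, the target genes Hey1, Hes5 and Hes1 were the most abundant members, and Hey2 was the lowest. In CPM per kilobase of annotated exon, Hey1 stood first at 13.8 ± 0.53 in Cre and 14.3 ± 0.64 in WT (SD, n = 4 each). Hes5 stood at 5.83 ± 0.50 in Cre and 8.06 ± 0.32 in WT, and Hes1 at 6.54 ± 0.18 in Cre and 6.85 ± 0.69 in WT. In Cre libraries Hes1 was above Hes5 with no overlap, while in WT libraries Hes5 had the higher mean and the ranges overlapped. Notch2 (3.98 ± 0.33 in Cre, 3.70 ± 0.24 in WT) and Notch1 (2.94 ± 0.23 and 2.82 ± 0.31) followed in CPM per kilobase. Each of these genes was apart from its next neighbour in both groups. Dll1 (2.09 ± 0.17 in Cre, 1.95 ± 0.16 in WT), Rbpj (1.93 ± 0.08 and 1.91 ± 0.09), Notch3 (1.77 ± 0.25 and 1.77 ± 0.19) and Jag1 (1.46 ± 0.12 and 1.39 ± 0.23) overlapped with their neighbours in this order in both groups. Hey2 had 0.84 ± 0.08 in Cre and 0.78 ± 0.19 in WT. The order depends on the length used. With the longest annotated transcript in place of all exons, Hes1 lay above Hes5 in WT too (9.51 against 8.63 CPM per kilobase), and Rbpj, whose exons add up to 12750 bases against 5485 in its longest transcript, moved to 4.49 in Cre and 4.44 in WT, the fourth place in WT. On the same scale Hey2 moved to 1.52 in Cre and 1.41 in WT, where it stayed the lowest in WT.

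**Figure D4:**
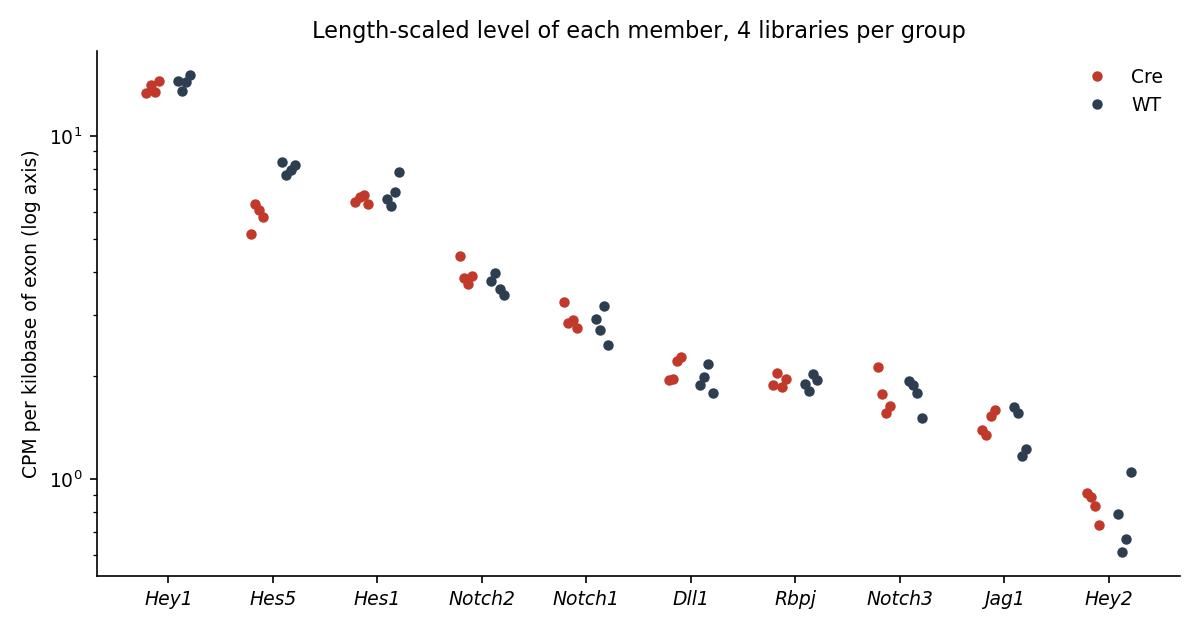
CPM per kilobase of annotated exon on a log axis for each member, ordered by its mean in WT, with 4 Cre and 4 WT libraries as points. Hey1 leads at 13.8 ± 0.53 in Cre and 14.3 ± 0.64 in WT, and Hey2 is lowest at 0.84 ± 0.08 and 0.78 ± 0.19.

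The rest of the pathway was read from a list of 73 genes arranged by role, of which 70 were tested. With edgeR's quasi-likelihood fit 0 of 70 passed in either direction, and the lowest adjusted p was 0.9995. DESeq2, limma voom and edgeR's exact test also gave 0. At an unadjusted p under 0.05 there were 4, with 3 higher (2.05% of all genes) and 1 lower (1.45% of all genes) in Cre. The list had 33 log2 fold changes above 0 and 37 below, a median of -0.003 and a range from -0.38 to 0.29, against a median of 0.0004 over all genes. No value in the list reached that of Hes5 in the fit of all libraries. Hes5 was chosen for its difference, and 139 of all 15859 tested genes lay lower. Hes2, Hes3 and Helt, further members of the Hes family, had too few counts to be tested.

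Among the other Hes and Hey genes and targets, Heyl, a Notch target of vascular smooth muscle, had the value nearest to that of Hes5. It ran from 2.24 to 3.31 CPM in Cre and from 2.72 to 5.30 CPM in WT, with a log2 fold change of -0.38 (SE 0.21). The WT replicates 2 and 4 fell among the Cre libraries, so the groups overlapped. Without WT replicate 1, the highest library and the one with the choroid plexus markers, the log2 fold change was -0.17. Over all 8 fits that left out 1 library it lay between -0.51 and -0.17. The -0.51 came without WT replicate 4, where Hes5 was at -0.46, so Heyl lay lower than Hes5 in that fit. Nrarp, a feedback inhibitor that Notch induces directly, ranged from 27.6 to 31.2 CPM in Cre and from 27.4 to 31.0 CPM in WT, a log2 fold change of 0.05 (SE 0.06). Hes6 (-0.04, SE 0.08), which counteracts Hes1, and Hes7 (-0.15, SE 0.20), known from the segmentation clock of the embryo, did not pass either. The proneural and Id factors had 5 log2 fold changes above 0 and 2 below. Id4, an inhibitor of basic helix-loop-helix factors that is abundant in astrocytes and stem cells, had 85.2 ± 7.73 CPM in Cre and 77.0 ± 6.86 CPM in WT (log2 fold change 0.15, SE 0.07; 0.09 without WT replicate 1).

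All 7 other receptors and ligands had values below 0, from -0.21 to -0.01, with standard errors of similar size. Jag2, a Jagged ligand, had 42.9 ± 0.86 CPM in Cre and 45.6 ± 2.98 CPM in WT (log2 fold change -0.09, SE 0.05). Dner, a neuronal Delta-like protein, had 146 ± 4.13 CPM in Cre and 147 ± 6.16 CPM in WT (log2 fold change -0.01, SE 0.04). The 5 genes that glycosylate the receptor had values below 0, with a median of -0.009, where 49.8% of all tested genes lay below 0. Lowest was the fringe enzyme gene Lfng at 16.9 ± 1.94 CPM in Cre and 18.3 ± 0.93 CPM in WT (-0.11, SE 0.08). The rest were near 0, from -0.012 for Mfng to -0.001 for Poglut1. Without Cre replicate 1 the log2 fold change of Lfng was -0.04, and without Cre replicate 3 it was -0.18. Rfng, another fringe gene, had a log2 fold change of -0.004 (SE 0.05). Neurl1a, whose product ubiquitinates ligands, had 301 ± 7.18 CPM in Cre and 296 ± 11.4 CPM in WT (log2 fold change 0.03, SE 0.04).

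Of the 10 protease genes, 3 lay above 0 and 7 below. Psenen, a gamma-secretase subunit, had 18.7 ± 1.07 CPM in Cre and 20.9 ± 1.88 CPM in WT (log2 fold change -0.16, SE 0.07). Adam10, the main sheddase of Notch, had 86.3 ± 4.08 CPM in Cre and 88.6 ± 4.24 CPM in WT (log2 fold change -0.04, SE 0.05). Among modulators of receptor turnover, Dtx4, of the Deltex ubiquitin ligases, stood at 0.08 on the log2 scale (SE 0.05), and the kinase gene Aak1 had -0.06 (SE 0.05).

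The cofactors of Rbpj held the only pathway genes outside the members whose groups did not overlap. Tle2, a Groucho-type corepressor that Hes proteins recruit, had 23.4, 21.8, 23.5 and 22.5 CPM in Cre and 19.9, 20.2, 20.4 and 18.6 CPM in WT. Every Cre library was above every WT library, with a log2 fold change of 0.21 (SE 0.05), and it did not pass (edgeR quasi-likelihood adjusted p = 0.9995). Kat2b, an acetyltransferase that joins the Notch coactivator complex, had 19.5, 20.9, 21.3 and 19.9 CPM in Cre and 18.1, 18.8, 18.9 and 18.6 CPM in WT. It also lay higher in every Cre library, by a log2 fold change of 0.13 (SE 0.05, likewise adjusted p = 0.9995 with edgeR). These are 2 of 70 genes, where 1.29% of all genes lay higher in Cre without overlap. Ep300, a histone acetyltransferase and the coactivator gene with the highest CPM, stood at -0.02 on the log2 scale (SE 0.06).

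**Figure D5:**
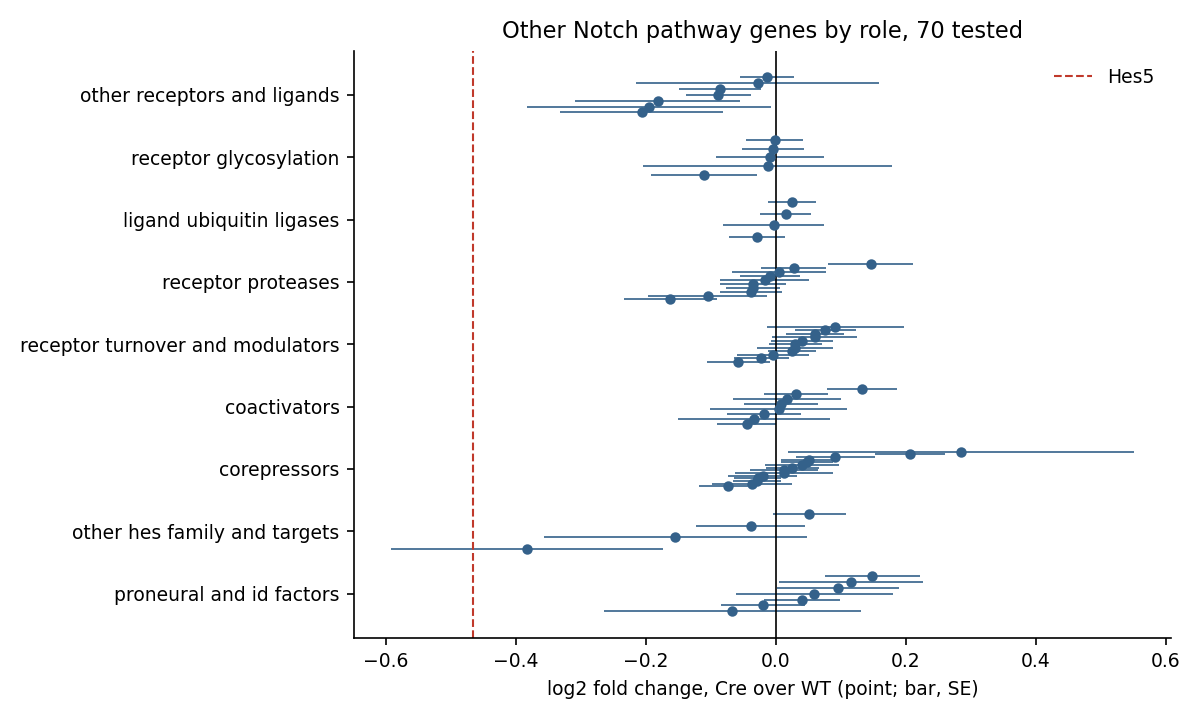
Log2 fold change, Cre over WT, of the 70 tested Notch pathway genes outside the 10 members, grouped by role (points, with SE as bars); the dashed line marks Hes5 at -0.47. The points run from -0.38 to 0.29, and none reaches the line of Hes5, which was chosen for its difference.

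Marker lists of several glial cell types, astrocytes among them, had medians above 0, and no marker in them passed the adjusted threshold. Of 14 astrocyte markers, 13 had log2 fold changes above 0 (median 0.09), and their summed level was 6064 to 6737 CPM in Cre and 5642 to 6039 CPM in WT. Over all genes, 0 of these markers passed with edgeR's quasi-likelihood fit (0.0315% of all genes), and 5 had an unadjusted p under 0.05, all higher in Cre (2.05% of all genes). Of 10 microglia markers, 10 had log2 fold changes above 0 (median 0.19) and 6 had an unadjusted p under 0.05, all higher in Cre (2.05% of all genes). Of 8 oligodendrocyte markers, 8 lay above 0 (median 0.15) and 2 had an unadjusted p under 0.05, both higher in Cre (2.05% of all genes). Their summed levels were 4043 to 5184 CPM in Cre and 4021 to 4472 CPM in WT. Cre replicate 1 had the highest sum of the astrocyte, microglia and oligodendrocyte markers. Its microglia sum was 557 CPM, against 422 to 434 CPM in the remaining Cre libraries and 387 to 418 CPM in WT. Fold changes of the markers without that library are not given. Relative to the mean log2 CPM of the astrocyte markers in the same library, Hes5 stood at -4.58 ± 0.19 in Cre and -4.02 ± 0.08 in WT (log2 scale, SD, n = 4 each), a difference of -0.56. This scale was chosen after seeing the data, and the difference holds the values by which Hes5 was chosen. Of 6 tested markers of neural stem cells, 5 lay above 0 (median 0.08), and their summed level was 175 to 233 CPM in Cre and 169 to 194 CPM in WT. The 233 CPM belonged to Cre replicate 1, and the other 3 Cre libraries, at 175 to 189 CPM, lay inside the WT range. Tfap2c, the remaining stem cell marker, was near 0 at 0.12 CPM in Cre and 0.21 CPM in WT.

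The markers of cycling cells were sparse, with a summed level of 3.68 to 5.72 CPM in Cre and 3.49 to 4.90 CPM in WT. All 5 neuroblast markers lay above 0 (median 0.18), with summed levels of 85.2 to 96.1 CPM in Cre and 77.8 to 85.0 CPM in WT, and 0 passed by the edgeR test or had an unadjusted p under 0.05. Of the vessel markers, 5 of 10 endothelial markers lay above 0 (median 0.01), and 3 of 10 mural markers lay above 0 and 7 below (median -0.02). Summed mural markers were 176 to 190 CPM in Cre and 164 to 226 CPM in WT. Excitatory neuron markers, the cells in which Camk2a drives Cre, had a median of 0.01 and summed levels of 7741 to 8313 CPM in Cre and 7783 to 8257 CPM in WT. The part of any of these cell types in the Hes5 difference was not tested.

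The genes whose level varied most like that of Hes5 between libraries were found from deviations from the mean of each genotype, which leave the Cre over WT difference out. Over 8 libraries and 11909 genes, the highest Pearson correlations belonged to Stau2 (0.99), Zfp53 (0.98), Psmc6 (0.97), Dnal1 (0.97) and Mboat7 (0.96). In all, 62 genes reached 0.9, as a description of these libraries. None of the 5 is a Notch gene. Stau2, which encodes an RNA-binding protein of dendrites, had 151 CPM in Cre and 148 CPM in WT (log2 fold change 0.02, SE 0.04), so its level did not follow Hes5 between genotypes. Among the members, Hey1 (0.52), Rbpj (0.43) and Hes1 (0.34) had positive values, and Notch2 (-0.78), Notch3 (-0.59) and Notch1 (-0.44) negative ones. These values rest on 4 libraries per genotype, and with so few they describe the libraries alone. The SD of Hes5 within a genotype was also near that of counting error. It was 0.68 CPM against 0.57 CPM in Cre, and 0.43 CPM against 0.66 CPM in WT. The correlations with Hes5 therefore cannot be told apart from counting noise.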

How the data were processed

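Hippocampal poly(A) RNA of 4 Cre and 4 WT libraries was sequenced as 150-base read pairs with a directional kit in a single lane, per the labels' protocols. The values the authors deposited are unnormalized counts, whole numbers listed by gene symbol for every library. Per the submitters' processing notes, the tools were STAR 2.6.1d, featureCounts and edgeR 3.11 on GRCm38; which annotation release and strand setting were used is not given in the sources used here. A second deposited table gives the authors' comparison, with a log2 fold change, an average log2 CPM, both also on a linear scale (a signed fold and an abundance, treated as scores), and a p-value per gene whose adjustment is not stated. Of it, the log2 fold changes and, after Benjamini-Hochberg adjustment, the calls were read.

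From the counts, genes were filtered with filterByExpr (minimum count 10, minimum total 15), normalized by TMM and compared, Cre over WT, with edgeR 4.0.16's quasi-likelihood test (R 4.3.3) without covariates, 2-sided, adjusting by Benjamini-Hochberg over 15859 genes at a threshold of 0.05. The fit was tested on simulated data. Entries that repeat a symbol (272) stayed separate. Alternatives were DESeq2 1.42.0, limma 3.58.1 voom, edgeR's exact test, other normalizations and filters, a replicate block, and leaving out each library. Positions and exon lengths are from GENCODE M21 (GRCm38), promoters from RefSeq (GRCm38.p6). The members, gene lists and markers were chosen with earlier results of these data known. Named are all members, in each role the gene with the smallest p and the one with the highest CPM, genes overlapping or next to Hes5, and the 5 genes most like Hes5; Tle2, Kat2b, Heyl and Id4 are among the smallest-p genes. Hes6, Hes7, A930024N18Rik and marker genes were added for their role or position. Some genes that the rule names are not reported here. Replicates of each group differed by more than sampling noise. The median SE, which holds both counting error and spread between libraries, was 0.08 on the log2 scale for the members and 0.07 over all genes.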

Additional observations from a re-analysis of the deposited data

Results flagged for a closer look

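Of 102 groups of 4 libraries examined, 5 held a library far from the other 3, where chance gives about 1 in 20. Ep300 had 104 CPM in Cre replicate 4, against 94.5 CPM in the next Cre library. Pank4, the gene after Hes5, had 32.9 CPM in WT replicate 1, against 31.0 CPM in the next WT library. Microglia markers summed to 557 CPM in Cre replicate 1, against 434 CPM in the next Cre library. Choroid plexus markers summed to 993 CPM in WT replicate 1, against 34.5 CPM in the next WT library. Excitatory neuron markers summed to 7783 CPM in WT replicate 2, against 8193 CPM in the next WT library. None of the 10 Notch genes was among them.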

How the results depend on the processing

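The log2 fold change of Hes5 stayed between -0.50 and -0.41 when 1 library was left out, and between -0.47 and -0.46 under the other normalizations, filters and tools. Relative to the astrocyte markers, an alternative chosen after seeing the data, it was -0.56. Whether Hes5 passed the threshold depended on the tool. It did with DESeq2 and edgeR's exact test and did not with edgeR's quasi-likelihood test or limma voom. The cause of this difference between tools was not tested. Hes5 also did not pass in any of the 8 fits without 1 library. All of these used the quasi-likelihood test, in which it had not passed with all libraries, so they do not show what a single library does to the call. With the p-values of the authors' deposited table, adjusted here by Benjamini-Hochberg, Hes5 was 1 of 7 genes past the threshold among 18116. Genes past the threshold over all genes numbered 5, with 4 to 7 over all alternatives and 4 to 6 when 1 library was left out. In the pathway list the count was 0 under every alternative, and 1 member, Hes5, had groups that did not overlap in each normalization and filter. Leaving out a library cannot bring groups that are apart to overlap, so those fits do not test the separation. Hes5 was also chosen by these values. Hes5 did not pass the threshold with the other normalizations and filters. With the replicate number as a block, 6 genes passed, 0 of them members or in the pathway list, and Hes5 was at -0.47. The numbers are not shown to pair the libraries, since the correlations of same-numbered deviations were 0.20, -0.11, 0.02 and 0.02, and 1 of 4 Cre libraries correlated best with its own number. Some of the small fold changes changed sign when 1 library was left out, among them Hes1 (-0.11 to 0.002), Notch3 (-0.11 to 0.05), Jag1 (-0.01 to 0.15) and Rbpj (-0.01 to 0.04). Length-scaled levels moved beyond the spread for 7 of 10 members when the longest transcript was used. Each move is the fixed ratio of the lengths, such as 1.07 for Hes5 and 2.32 for Rbpj, and does not depend on the counts. Hey2 had the fewest counts of the members, 74 to 117 per library.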
